A study of Mus musculus with 9 samples.

Results

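The cells that carry the deposited label capilEC, read here as brain capillary endothelial cells, were described across all genes. They were chosen by the label alone and numbered 787 of 1235 cells, or 63.7% (95% exact binomial interval 61.0 to 66.4%). The cells came from vascular fragments of adult mouse brain that were taken apart into single cells. Their RNA was read in 384-well plates by Smart-seq2, which covers whole transcripts. The other 8 labels served as the reference, with 116 aEC, 45 vEC, 17 CP-EC, 54 PC, 41 aSMC, 29 vSMC, 9 FB and 137 MG cells. The sources used here do not spell the label letters out, and name no strain, sex, age in weeks or number of animals and no treatment. Each label was deposited as 1 sample, so no difference between labels could be tested, and the intervals below cover counting error only. PCR copies were not marked with molecular identifiers, so reads are not independent molecules and these intervals are too narrow. No source used here says how the labels were assigned. A gene used to assign them is no independent evidence, so all contrasts between labels are descriptions.

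Capillary endothelial cells line the narrowest vessels of the brain and form the blood-brain barrier. Their tight junctions close the path between cells, and vesicle traffic through the cell is held low. Nutrients therefore enter through membrane carriers and receptors, while efflux pumps return many lipid-soluble compounds to the blood. Wnt ligands and norrin from neighbouring cells signal through beta-catenin to keep these properties in place.

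The 787 cells held 172998640 reads, and single cells ranged from 100364 to 750478 reads (median 192941). The 4 plates, named by the cell-name prefixes s169s, s480s, s482s and s483s, held 223, 150, 198 and 216 of the cells. The labels do not tie a plate to an animal or a date, so plates are used below as repeat measurements of unknown origin. Plate s169s stood apart from the other 3. Its median depth was 154182 reads per cell against 201268 to 224461, and 194 genes were at least 4-fold lower on it. Plate s480s differed in sex-linked RNA, described with the plates below. Values by plate are given for some of the genes that differ between plates. Of 10 mural, 6 fibroblast and 8 microglial marker genes, the summed levels in capilEC were 188, 5.80 and 237 CPM (counts scaled to 1000000 reads). In the labels of their own classes the sums were 14527 to 20517 CPM for mural genes (PC, aSMC and vSMC), 9782 CPM for fibroblast genes (FB) and 28722 CPM for microglial genes (MG). Counted cell by cell, 18 of the 787 cells held markers of another class above 10% of the median that class shows.

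The label was first set against 5 marker genes of brain capillary endothelium. These were Cldn5 (claudin 5, the main seal of the tight junction), Slc16a1 (the lactate carrier MCT1), Mfsd2a (the carrier of lysophospholipids that bear omega-3 fatty acids), Slc38a5 (a glutamine carrier) and Car4 (a membrane-bound carbonic anhydrase). Cldn5 was at 4425 CPM in capilEC (95% exact Poisson interval 4415 to 4435), above 3868 CPM in aEC and 3269 CPM in vEC. Over single cells, each thinned at random to 100000 reads, Cldn5 ranged from 50 to 10720 CPM with a median of 4640 CPM. At least 100 CPM, or 10 of the 100000 reads, was reached in 99.6% of the capilEC cells. Cldn5 marked all 4 endothelial labels rather than capillaries, and at 281 to 821 CPM it was also read in the 5 non-endothelial labels.

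Car4 was at 1646 CPM in capilEC, 205 CPM in aEC and 702 CPM in vEC. Its levels in CP-EC (1285 CPM), vSMC (1238 CPM) and PC (1069 CPM) were close to that of capilEC, so that Car4 did not separate the label from them. Slc16a1 was at 1048 CPM, above 636 CPM in vEC and 172 CPM in aEC. Mfsd2a was at 851 CPM, above 362 CPM in aEC and 55.7 CPM in vEC. Slc38a5 was at 764 CPM in capilEC and 47.4 CPM in aEC, but vEC held 2026 CPM, the highest of the 9 labels. The 5 markers thus placed capilEC between aEC and vEC for Slc38a5 and above both for the other 4.

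Single reads of a marker were found in many cells of other types. In cells thinned to 100000 reads, Mfsd2a had at least 1 read in 86.9% of capilEC cells (84.4 to 89.2%; 92.9% before thinning) and in 54.0% of MG cells, which are not endothelial. The median depths before thinning were 192941 and 232674 reads. At 10 reads or more the shares were 59.5% and 3.65%, so this higher limit is used below for shares of cells. By it Car4 was found in 82.1%, Slc16a1 in 68.1% and Slc38a5 in 50.3% of capilEC cells. In MG cells the shares were 10.2%, 6.57% and 2.92%. Some other labels lay closer to capilEC. Car4 passed in 86.2% of vSMC, 76.5% of CP-EC, 68.9% of vEC and 64.8% of PC cells, but in 24.1% of aEC cells. In vEC cells the shares were 66.7% for Slc16a1, 93.3% for Slc38a5 and 8.89% for Mfsd2a. All 5 markers passed the limit together in 183 capilEC cells (23.3%), and 1 capilEC cell passed it for none. At least 4 of the 5 passed in 58.3% of capilEC, 51.1% of vEC and 7.76% of aEC cells. By that count capilEC and vEC were close.

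The sum of all reads was spread over many genes. The 10 most abundant rows took 6.52% of the reads, the first 100 took 20.5% and the first 1000 took 52.0%. Above 5 CPM lay 10834 genes, 4400 reached 50 CPM and 93 reached 1000 CPM. In thinned cells the median cell held 2784 genes, with a range of 1830 to 5789, and 33 genes had a read in every one of the 787 cells. Of the 4400 genes at 50 CPM or more, 314 (7.14%) were highest in capilEC among the 9 labels.

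To compare genes, CPM was divided by the exonic length of each gene in kilobases (kb). Bsg (basigin, a surface glycoprotein that partners the lactate carriers) led with 3441 CPM per kb and ranged from 2870 to 4406 over the plates. Cldn5 followed with 3125 CPM per kb (2887 to 3368), and its plate range lay within that of Bsg. Itm2a, an integral membrane protein, came next at 2686 CPM per kb (2161 to 3759). Pltp (phospholipid transfer protein), B2m (the light chain of class I molecules) and Ly6a (Sca-1, a lipid-anchored surface protein) had 2120, 2068 and 2010.5 CPM per kb, and their plate ranges overlapped. The next genes by length were Tmsb4x (1454 CPM per kb), which encodes an actin-binding peptide, Igfbp7 (1428), Ifitm3 (1327), Actb (1291) and Ly6c1 (1249). Slc2a1, the glucose carrier GLUT1, was the first nutrient carrier in the order with 1019 CPM per kb.

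Without division by length, and apart from ribosomal and mitochondrial RNA, the leading rows were Yam1 (8856 CPM) and Yam1.1 (7423 CPM). Neither has a length in the annotation used. Next came Bsg (6243 CPM), Pltp (5432 CPM), Itm2a (4684 CPM) and Cldn5 (4425 CPM). They were followed by Cxcl12 (3621 CPM), a chemokine held on the vessel wall, and Slc2a1 (3573 CPM). Ribosomal and mitochondrial RNA stayed small, with 1.31% of reads in the 18S ribosomal rows, 1.97% in mitochondrial rows and 2.53% in ribosomal protein genes. Reads of Pltp and Ctsa, which overlap on opposite strands over 19.3% of the exonic bases of Pltp, cannot be told apart without strand.

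**Figure D1:**
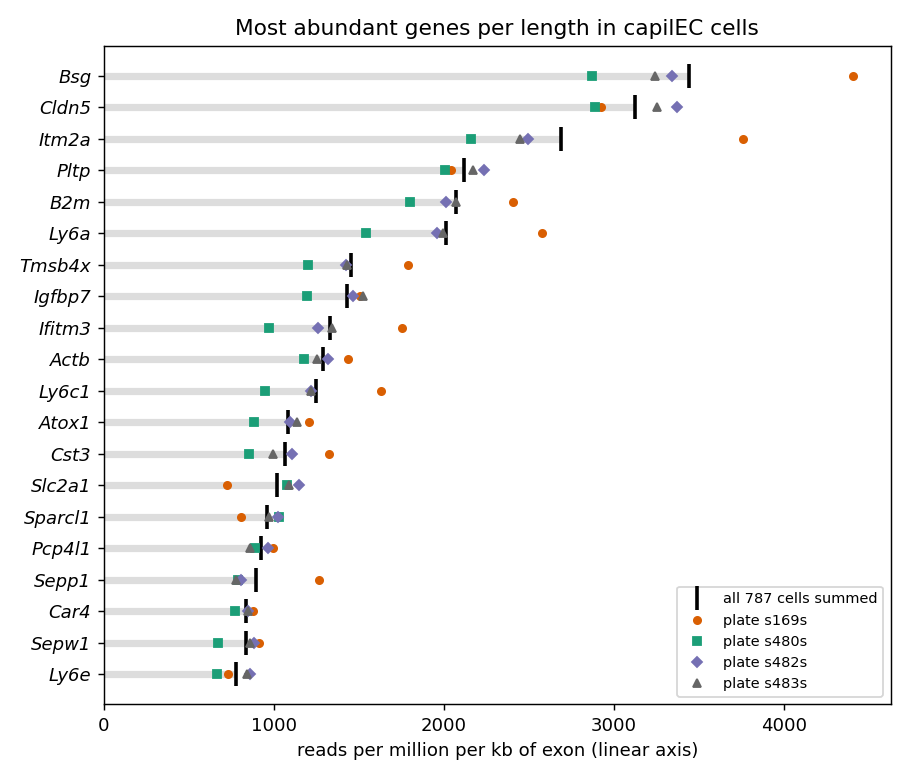
The 20 most abundant genes of the 787 capilEC cells, in CPM per kilobase of exon on a linear axis, with the sum of all cells as a black bar and the 4 plates as points. Bsg and Cldn5 lead with 3441 and 3125, and plate s169s lies to the right of the others for Bsg, Itm2a and Ly6a and to the left for Slc2a1.

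The first contrast asked which genes were higher in capilEC than in every other label. A gene met it with at least 50 CPM and a read in at least 50% of capilEC cells before thinning. Its level also had to be at least 2-fold above the highest of the other 8 labels, on the scale log2(CPM + 5). That scale understates differences of low genes. The rule was met by 9 of 15494 genes (0.0581%). They were Tfrc, Slc1a1, Apcdd1, Slc7a1, the clone-named gene 4430402I18Rik, Ddc, Slc7a5, Mfsd2a and Tecpr1. Of the 9, 5 encode carriers or receptors that bring nutrients into the cell (Tfrc, Slc1a1, Slc7a1, Slc7a5 and Mfsd2a). Within plates, 7 of the 9 were higher in capilEC in all 25 pairings with another label that held at least 5 cells there. CP-EC entered on s483s alone (10 cells) and FB on no plate. The pairings split the same cells that chose the genes, so their direction is in part built in. Mfsd2a and Tecpr1 were lower in 1 of 25 pairings each. Without plate s169s the rule was met by 14 genes.

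Tfrc, the transferrin receptor that brings iron into the cell, was at 778 CPM in capilEC (interval 774 to 782). The other labels held at most 235 CPM (aEC) and 209 CPM (vEC), which made the difference 1.71 on the log2 scale. The plates gave 381 CPM on s169s and 1222, 740 and 763 CPM on s480s, s482s and s483s. Each plate therefore lay above the aEC level, with s169s closest to it. At 10 reads or more, Tfrc was found in 61.2% of capilEC cells (57.7 to 64.7%), 44.4% of vEC cells and 30.2% of aEC cells.

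Of the 9 genes, 3 encode amino acid carriers. Slc7a5 (LAT1, which exchanges large neutral amino acids and carries L-DOPA) was at 520 CPM in capilEC against 214 CPM in CP-EC, the next label, and 181 CPM in vEC. The plates held 334, 687, 542 and 512 CPM. Its difference of 1.26 fell to 0.95, under the 2-fold limit, with size factors from DESeq2. Slc7a1 (CAT1, the carrier of arginine and lysine) was at 693 CPM against 237 CPM in vEC. The plates held 176, 924, 773 and 837 CPM of Slc7a1, so that s169s lay below the pooled vEC level and the other 3 well above it. Slc1a1 (EAAC1, a glutamate and aspartate carrier) was at 385 CPM against 119 CPM in aEC, and its plates held 364 to 404 CPM. The gene 4430402I18Rik (190 CPM against 64.3 in aEC) lies antisense to Slc1a1, and 31.9% of the exonic bases of Slc1a1 overlap it. Without strand in the counts, the levels of these 2 genes cannot be told apart over that stretch.

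Ddc (aromatic L-amino acid decarboxylase, which turns L-DOPA into dopamine) was at 423 CPM against 149 CPM in aEC and 107 CPM in vEC. Its plates ranged from 348 to 477 CPM, all above both. Apcdd1, an inhibitor of Wnt signalling that is itself a Wnt target, was at 337 CPM against 105 CPM in aSMC and 103 CPM in vEC. It was at 46.8 CPM on plate s169s and at 392 to 466 CPM on the other plates. Within plates, its difference from aEC and vEC was at least 1.80 on each of the 4. Mfsd2a differed by 1.22 from aEC and held 510 CPM on s169s and 872 to 1053 CPM elsewhere. Tecpr1, a protein of autophagosome maturation, was at 137 CPM against 65.0 CPM in aEC.

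**Figure D2:**
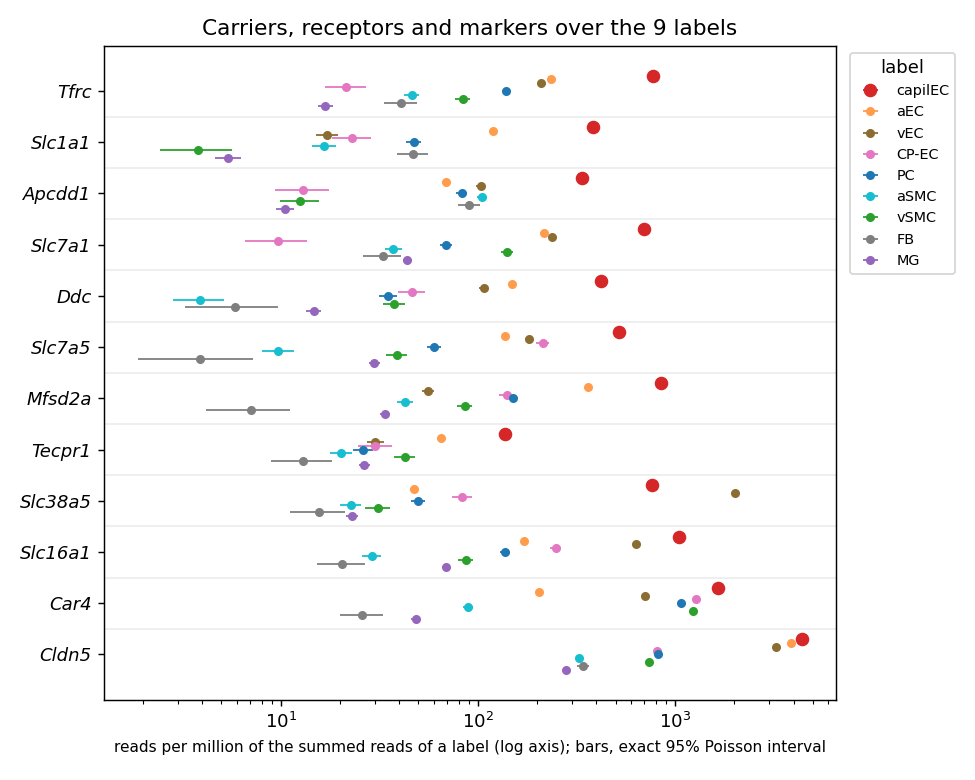
Levels of 8 of the 9 genes and of the other 4 capillary markers in the 9 labels, in CPM on a log axis, with exact 95% Poisson intervals. The red capilEC point is rightmost for every gene except Slc38a5, where vEC lies at 2026 against 764.

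From this list, 7 genes, Tfrc, Slc1a1, Apcdd1, Slc7a1, Ddc, Slc7a5 and Mfsd2a, were then counted cell by cell at 10 reads or more. The median capilEC cell held 4 of the 7, against 2 in aEC and in vEC and 0 in each other label. All 7 were found together in 34 capilEC cells (4.32%) and in 0 cells of any other label. At least 4 were found in 51.2% of capilEC cells, 11.2% of aEC cells and 8.89% of vEC cells. None was found in 40 capilEC cells. The genes were chosen for their level in this label, so these counts describe how the sum is made up from cells.

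The promoters of 5 of these genes are shown. By difference they rank 1, 2, 4, 6 and 8 among the 9 genes higher in capilEC than in every other label. Apcdd1 (rank 3) was not chosen, and no window was at hand for Slc7a5 (rank 7). Each window holds the 250 bases before the start site in RefSeq on GRCm38.p6, written 5′ to 3′ along the gene, with capitals for motif matches. Where RefSeq lists several starts, as for Tfrc, Slc7a1 and Ddc, the most upstream one was used. The windows are Tfrc at chr16:32608646-32608895 (plus strand), Slc1a1 at chr19:28834885-28835134 (plus), Slc7a1 at chr5:148399905-148400154 (minus), Ddc at chr11:11898145-11898394 (minus) and Mfsd2a at chr4:122961189-122961438 (minus).
Tfrc: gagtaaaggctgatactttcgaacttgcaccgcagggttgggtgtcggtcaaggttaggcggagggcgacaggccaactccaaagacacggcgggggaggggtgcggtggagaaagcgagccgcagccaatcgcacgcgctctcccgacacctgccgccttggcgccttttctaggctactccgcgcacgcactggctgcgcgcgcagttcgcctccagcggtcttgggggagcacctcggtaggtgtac
Slc1a1: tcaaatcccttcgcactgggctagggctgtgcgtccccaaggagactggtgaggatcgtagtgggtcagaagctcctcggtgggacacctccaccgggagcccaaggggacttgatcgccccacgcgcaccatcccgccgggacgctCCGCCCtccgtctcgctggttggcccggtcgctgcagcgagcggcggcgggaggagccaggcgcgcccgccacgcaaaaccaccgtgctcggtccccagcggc
Slc7a1: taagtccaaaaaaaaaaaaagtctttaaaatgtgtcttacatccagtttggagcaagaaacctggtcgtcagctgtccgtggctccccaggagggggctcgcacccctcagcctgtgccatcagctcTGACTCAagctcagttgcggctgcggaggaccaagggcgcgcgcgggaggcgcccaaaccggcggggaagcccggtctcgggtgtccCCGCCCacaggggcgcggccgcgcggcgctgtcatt
Ddc: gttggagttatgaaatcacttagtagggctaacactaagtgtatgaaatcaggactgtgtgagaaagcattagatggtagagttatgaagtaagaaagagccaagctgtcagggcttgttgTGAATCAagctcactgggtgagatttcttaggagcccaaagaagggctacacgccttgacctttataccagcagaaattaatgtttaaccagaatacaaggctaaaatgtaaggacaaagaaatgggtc
Mfsd2a: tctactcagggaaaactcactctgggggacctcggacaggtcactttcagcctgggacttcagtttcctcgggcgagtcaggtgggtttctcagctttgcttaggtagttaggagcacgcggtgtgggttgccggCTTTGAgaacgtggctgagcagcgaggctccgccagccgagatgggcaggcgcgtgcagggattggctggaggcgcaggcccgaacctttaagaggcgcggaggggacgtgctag
The 7 motifs below were searched on both strands. CTTTGA (TCF/LEF) occurs in 13.8% of all 32851 promoter windows of this length, CACGTG (E-box) in 6.02%, ACAATG (SOX) in 10.7%, CGGAAG (ETS) in 13.6%, TGANTCA (AP-1) in 6.75%, TGATGNAA (amino acid response) in 3.45% and GGGCGG (SP/KLF) in 32.7%. Slc7a1 and Ddc each held 1 AP-1 match, Slc7a1 and Slc1a1 1 SP/KLF match, Mfsd2a 1 TCF/LEF match, and Tfrc none of the 7. The 5 windows shared no motif. The G+C content was 40.8% for Ddc and 61.6 to 70.4% for the other 4, against a median of 52.4% over all windows.

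Genes lower in capilEC than in every other label were 2 of 10838 (0.0185%), Egr1 and Fos. Egr1 was at 111 CPM and its lowest other label, CP-EC, at 234 CPM. Fos was at 386 CPM and its lowest other label, vSMC, at 778 CPM. Both encode transcription factors induced within minutes of a stimulus. Each was lower in 24 of 25 plate pairings, and both differences lie at the 2-fold limit. Under several alternatives neither gene met it, TMM scaling and leaving out s169s among them.

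The second contrast set capilEC against the mean of aEC and vEC, and the third against the mean of the 5 non-endothelial labels PC, aSMC, vSMC, FB and MG. At 2-fold, 44 of 11651 genes (0.378%) were higher in capilEC than in aEC and vEC and 51 (0.438%) were lower. Without plate s169s, 70 were higher, 41 of them among the 44. At 4-fold, 215 of 12979 genes (1.66%) were higher than in the non-endothelial labels and 137 (1.06%) were lower. The median differences over all measured genes were -0.06 and -0.07. The non-endothelial reference held endothelial reads: the sum over 10 pan-endothelial genes was 13702 CPM in capilEC, against 3386 for PC, 2797 for vSMC and 703 to 1302 CPM for the other 3. Without cells that held markers of another class, 288 genes were higher, 209 of them among the 215, but this left 1 of 9 FB cells and 15 of 54 PC cells. No plate held 5 FB cells, so FB enters no value by plate.

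Glucose, lactate and small solute carriers were mostly within 2-fold of aEC and vEC, while their summed level was 11273 CPM in capilEC and 3254 CPM in CP-EC. Of 17 measured members, 1 (Slc16a1) was higher than in aEC and vEC, with a list median of 0.24 against -0.06 over all genes. Of 19, 9 were higher than in the non-endothelial labels, with a median of 1.73. Slc2a1 was at 3573 CPM in capilEC, 3860 in aEC and 2185 in vEC, and s169s (2527 CPM) lay below the other plates (3779 to 4017). Slc6a6, the taurine carrier, was at 1629 CPM and higher in aEC (2325 CPM). Slc39a10 (a zinc importer, 1019 CPM) and Slc40a1 (ferroportin, the iron exporter, 816 CPM) exceeded aEC and vEC by 0.84 and 0.97, just under the limit. Slc16a4, a monocarboxylate carrier, was at 446 CPM and was higher on s169s (735 CPM) than elsewhere (360 to 367 CPM). Slc2a3, the neuronal glucose carrier, was close to 0 at 0.15 CPM.

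Several amino acid carriers were above both vessel labels. Of 14 measured members, 4 (Slc1a1, Slc7a5, Slc7a1 and Slc38a3) were higher than in aEC and vEC, and the list median was 0.75. Of 17, 5 were higher than in the non-endothelial labels, while the list median there was -0.76, with 8 of 17 above 0. Slc38a3 (SNAT3, a glutamine carrier) was at 1238 CPM against 431 in aEC and 628 in vEC, with 461 CPM on s169s and 1358 to 1669 CPM elsewhere. Slc3a2, the heavy chain that pairs with Slc7a5, was the most abundant member at 1636 CPM and even over the plates (1508 to 1694 CPM). Some carriers that FB held at high level were near 0 in capilEC. Slc7a11 was at 2.84 CPM against 2351 in FB, and Slc6a13 at 0.896 CPM against 1782 in FB. Slc1a5, a glutamine carrier of many dividing cells, was at 6.84 CPM.

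Efflux pumps and organic anion carriers were mostly within 2-fold of aEC and vEC. Of 13 measured members, 1 (Slc22a8, the anion carrier OAT3) was higher than in aEC and vEC, at 1435 CPM against 378 and 710, with a list median of 0.12. Of 12, 6 were higher than in the non-endothelial labels, with a median of 2.39. Slco1a4, a carrier of bile acids and steroid conjugates, led at 3128 CPM and had 10 reads or more in 99.1% of the cells. Slco1c1, the thyroxine carrier, was at 1862 CPM, Abcg2 (the breast cancer resistance protein) at 1218 CPM and Abcb1a (P-glycoprotein) at 875 CPM. Abcb1b, the second P-glycoprotein gene of the mouse, was at 1.35 CPM. Abcc4 held 195 CPM on s169s and 680 to 690 CPM on the other plates.

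By length, the order of the carriers named here ran from Slc2a1 (1019 CPM per kb) over Slco1a4 (488), Slc3a2 (464), Mfsd2a (378), Slc22a8 (367), Slco1c1 (359) and Slc38a5 (341) to Slc16a1 (237), Slc38a3 (235) and Slc6a6 (193). Slc39a10 (167), Abcb1a (160), Abcg2 (149) and Slc7a5 (140) followed. Slc2a1 stood above the rest on every plate (721 to 1146 CPM per kb, against at most 527 for Slco1a4). The plate ranges of Slco1a4 and Slc3a2 overlapped, as did those of Mfsd2a, Slc22a8, Slco1c1 and Slc38a5, so their order is not fixed.

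Of 22 measured junction genes, 0 met the 2-fold limit against aEC and vEC in either direction. Few genes of any kind did (0.378% higher and 0.438% lower). Of the 22, 18 had a difference above 0, with a median of 0.23 against -0.06 over all genes. Against the non-endothelial labels, 6 of 23 (Cldn5, Ocln, Jam2, Cdh5, Lsr and Pecam1) were higher, with a median of 1.39. Ctnnb1 (beta-catenin, 1671 CPM), Esam (1674 CPM) and Pecam1 (1324 CPM) were the most abundant after Cldn5 by CPM. By length Esam (584 CPM per kb), Lsr (367) and Ctnnb1 (322) came next after Cldn5. Ocln, which encodes occludin, was at 614 CPM. Jup (plakoglobin) was at 92.0 CPM on s169s and at 1185 to 1399 CPM on the other 3 plates. The claudin genes Cldn1 (0.0289 CPM) and Cldn3 (0 reads, a limit of 0.0173 CPM) were all but unread, and Cldn12 was at 13.8 CPM. Reads of Lsr are uncertain, since 44.7% of its exonic bases overlap genes on the other strand.

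Receptors and carriers of transcytosis and lipid uptake differed more. Of 18 measured members, 5 (Mfsd2a, Tfrc, Stra6, Igf1r and Insr) were higher than in aEC and vEC, with a median of 0.37. Of 23, 5 were higher and 1 (Lrp1) was lower than in the non-endothelial labels, with a median of 0.33. Igf1r and Insr, the receptors of IGF1 and insulin, were at 173 and 171 CPM, with 73.3 and 51.0 CPM on s169s and 166 to 241 CPM on the others. Stra6, the receptor of retinol-binding protein, was at 439 CPM in capilEC and 277 CPM in aEC but 7.23 CPM in vEC. Its plates held 36.7 CPM on s169s and 505 to 669 CPM elsewhere. Genes of caveolae were not lower by the rule: Cav1 was at 941 CPM against 1167 in aEC and 1604 in vEC, a difference of -0.56. Plvap, the diaphragm protein of fenestrated vessels, was at 1.62 CPM against 2223 CPM in CP-EC. Lrp1, a large endocytic receptor, was at 2.09 CPM against 214 CPM in PC and 759 CPM in FB.

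Surface and drug-metabolising enzymes went both ways. Of 18 measured members, 2 (Car4 and Ddc) were higher and 2 (Alpl and Entpd1) lower than in aEC and vEC, with a median of 0.12. Of 23, 4 (Maoa, Ddc, Gsta4 and Nos3) were higher than in the non-endothelial labels, where the median was -0.47. Alpl, an alkaline phosphatase often used to stain brain capillaries, was at 271 CPM in capilEC and 1414 CPM in aEC but 9.64 CPM in vEC. Maoa, which degrades monoamines, was at 575 CPM and Maob at 130 CPM. Nos3 (endothelial nitric oxide synthase) was at 568 CPM, with 108 CPM on s169s and 612 to 872 CPM elsewhere. The peptidase and transferase genes Ggt1, Ggt5, Anpep and Enpep, were at 0.578, 0.584, 0.202 and 0.653 CPM, and each was higher in PC, at 211, 236, 94.9 and 479 CPM.

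Of 24 measured genes of the Wnt and norrin pathway, 3 were higher than in aEC and vEC, Apcdd1 and Nkd1 among them, with a median of 0.46, and 21 of 24 had a difference above 0. The difference of Nkd1 ranged from -0.26 to 1.81 over the plates. Of 25, 7 were higher than in the non-endothelial labels, among them Lef1, Apcdd1, Foxq1, Foxf2, Sox17 and Spock2, with a median of 1.10. Lef1, a transcription factor that binds beta-catenin, was at 454 CPM against 265 in aEC and 300 in vEC. Among receptor and co-receptor genes, Fzd4 was at 50.6 CPM, Lrp5 at 74.6, Lrp6 at 55.8 and Tspan12 at 170 CPM. Adgra2 (GPR124) was at 133 and Reck at 193 CPM. By length, the plate ranges of Fzd6 (56.3 CPM per kb), Tspan12 (51.4) and Reck (40.5) overlapped that of Lef1 (51.7). Adgra2 (23.1), Lrp5 (7.66), Fzd4 (7.52) and Lrp6 (4.08) were lower than Lef1. The 4 members Adgra2, Apcdd1, Axin2 and Lrp5, were at least 4-fold lower on s169s than on the other plates. Adgra2 held 5.20 CPM there and 159 to 194 CPM elsewhere, and Tspan12 went the other way, with 383 CPM there and 104 to 112 CPM elsewhere. The summed level of the list was 4221 CPM on s169s and 7475 to 8135 CPM on the others.

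Transcription factors and receptors of endothelium were high, and few exceeded aEC and vEC by the rule. Of 30 endothelial transcription factor genes, the median difference from aEC and vEC was 0.06, and 9 were higher and 1 (Nr2f2) lower than in the non-endothelial labels (median 1.27). By CPM the most abundant were Tsc22d1 (2374 CPM), Epas1 (HIF-2alpha, 1376 CPM), Id3 (1296 CPM) and Sox18 (1005 CPM). By length Id1 (734 CPM per kb), Id3 (724) and Sox18 (621) led, with overlapping plate ranges, above Tsc22d1 (264) and Epas1 (246). Erg, a factor found in all endothelium, was at 95.7 CPM, Hey1, a Notch target of arteries, at 85.5 CPM, and Nr2f2, the factor of veins, at 17.5 CPM. Of 33 receptors and kinases, 2 (Flt4 and Nrp1) were higher than in aEC and vEC (median 0.21), and of 34, 15 were higher and 1 (Tgfbr1) lower than in the non-endothelial labels (median 1.81). Flt1, a decoy receptor of VEGF, was at 2778 CPM and Kdr, the signalling receptor, at 668 CPM against 321 CPM in aEC and 556 CPM in vEC. Flt4 (VEGFR3) was at 256 CPM against 85.6 and 88.8 CPM, with 79.9 CPM on s169s and 272 to 362 CPM on the others. The difference of Nrp1 (361 CPM) from aEC and vEC ranged from -0.36 to 2.75 over the plates.

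Of 30 measured secreted factors, 1 (Ndnf) was higher and 1 (Vwf) lower than in aEC and vEC, with a median of 0.12. Of 32, 9 were higher than in the non-endothelial labels, with a median of 0.37. Cxcl12 was at 3621 CPM in capilEC, 3390 in aEC and 371 in vEC, and its plates held 1197 CPM on s169s and 4068 to 4896 CPM elsewhere. Spock2, a matrix proteoglycan, was at 1261 CPM, Egfl7 at 1508 CPM and Sparcl1 at 2816 CPM. Pdgfb, the signal that recruits pericytes, was at 199 CPM and Edn1 (endothelin 1) at 212 CPM against 622 CPM in aEC. Among basement membrane genes, 2 of 21 (Agrn and Itga6) were higher than in aEC and vEC (median 0.29) and 2 of 25 (Fn1 and Itga6) higher than in the non-endothelial labels (median -0.34). Fn1 (fibronectin) was at 1045 CPM, Col4a1 and Col4a2 at 285 and 314 CPM, and Lama5 at 157 CPM. The laminin genes Lama2 (2.40 CPM) and Lamb1 (0.988 CPM) were near 0 and high in PC (452 and 209 CPM).

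Of 13 leukocyte adhesion genes, 0 were higher and 1 (Vcam1) lower than in aEC and vEC (median -0.03), and 6 of 11 were higher than in the non-endothelial labels (median 2.49). Vcam1 was at 62.0 CPM, against 136 CPM in aEC and 956 CPM in vEC. Sele had 0 reads and Selp was at 0.428 CPM. Cd34 (1452 CPM) and Emcn (1061 CPM), which encode sialomucins of the luminal face, were high, and Emcn was at 1492 CPM on s169s against 921 to 949 CPM. Of 15 class I genes, 1 (H2-Q7) was lower than in aEC and vEC (median -0.25). H2-Q7 has near-identical neighbours in its family, so its counts are uncertain. Of 26 interferon-response genes, 0 met the 2-fold limit against aEC and vEC, and 11 lay above 0 (median -0.01). Over all genes, 0.378% were higher and 0.438% lower by that limit. Against the non-endothelial labels, 4 of the 26 were higher and 1 (Ifitm1) lower (median 1.28).

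Immediate early genes had their lowest summed level in capilEC. Of 21 measured, 0 were higher and 7 (Fos, Junb, Egr1, Atf3, Nr4a1, Ier3 and Zfp36) lower than in aEC and vEC, with a median of -0.79. Of 22, 7 were lower than in the non-endothelial labels, with a median of -1.79. The summed level of the 22 genes was 3516 CPM in capilEC, 7131 in aEC, 7465 in vEC and 4225 to 30293 CPM in the other labels. These genes also answer to tissue dissociation, and the part of dissociation in the difference was not tested. Of 20 cell cycle genes, 5 exceeded 5 CPM, and Mki67 was at 0.00578 CPM, under the limit of 0.0173 CPM that 3 reads allow. Of 14 genes of tip cells, which lead sprouting vessels, 8 exceeded 5 CPM. Of 9 measured, 0 met the 2-fold limit against aEC and vEC, with 7 above 0 and a median of 0.61. Col4a1 (285 CPM) and Dll4, a Notch ligand (149 CPM), were the highest of the list, and Esm1 and Apln were at 0.231 and 2.91 CPM.

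The genes furthest above aEC and vEC, beyond those already described, were Ivns1abp, Hmcn1, Dok4, Ttyh2 and Serpine2. Ivns1abp, an actin-associated protein, was at 385.5 CPM against a mean of 53.4 CPM, a difference of 2.74 that ranged from 2.38 to 3.67 over the plates. Its level was higher still in CP-EC (842 CPM) and MG (807 CPM). Hmcn1 (hemicentin 1, a matrix protein) was at 284 CPM, 65.1 CPM in aEC and 65.9 CPM in vEC, and 171 CPM in CP-EC. Ttyh2 was at 383 CPM, with 106 CPM on s169s and 376 to 630.5 CPM elsewhere. Serpine2 (87.1 CPM), an inhibitor of serine proteases, and Dok4 (132 CPM) differed by 1.58 and 1.65. Of Dok4, 31.2% of the exonic bases overlap Polr2c on the other strand.

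The genes furthest below aEC and vEC included genes of arteries and veins. Mgp (matrix Gla protein) was at 21.2 CPM, against 430 CPM in aEC and 196 CPM in vEC, a difference of -3.60. Vcam1 (-3.04), Stmn2 (-2.60), Gkn3 (-2.55), Adh1 (-2.45), Cd9 (-2.28) and Gadd45g (-2.26) followed. Stmn2 and Gkn3 came from aEC (499 and 535 CPM against 39.0 and 43.0 CPM in capilEC), and Adh1 from vEC (733 CPM against 63.8 CPM). Of the 10 arterial markers 3 and of the 10 venous markers 2 were lower, and 0 were higher. The venous genes Lrg1, Ackr1 and Lcn2 were at 1.66, 1.60 and 10.6 CPM, against 591, 481 and 810 CPM in vEC. The summed arterial level was 499.8 CPM on s169s and 186 to 230 CPM on the other plates, with Gkn3 at 121 CPM and at most 29.5 CPM.

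Against the non-endothelial labels, the largest differences were those of Slc38a5 (4.52), Robo4 (4.48), Ddc (4.13), Tie1 (4.07), Kdr (4.06), Slc7a5 (3.97), Slc35f2 (3.96), Stra6 (3.96) and Sema6a (3.92). Robo4 and Tie1 encode receptors that steady the endothelial wall. Tie1 was at 206 CPM on s169s and 744 to 819 CPM elsewhere. Robo4 was at 710 CPM, with 312 CPM on s169s and 687 to 939 CPM elsewhere. Pglyrp1, a peptidoglycan-binding protein, was at 1200 CPM and differed by 3.84. In the other direction stood Serping1 (2.86 against 995 CPM), Prelp (1.23 against 683 CPM), Pdgfrb (3.90 against 832 CPM) and Vtn (43.5 against 3396 CPM). These are genes of mural cells and fibroblasts, and they were 66.6-fold to 127-fold higher there on the scale of CPM + 5 for the first 15 genes.

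The spread between cells was measured on each plate in cells thinned to 100000 reads, as the squared coefficient of variation (CV) against genes of like mean. It was taken for 2977 genes with a mean of at least 50 CPM on every plate. The median CV fell from 2.95 for 879 genes of 50 to 100 CPM over 2.10 and 1.22 to 0.633 for 93 genes of at least 1000 CPM. A squared CV at least 2-fold above genes of like mean on all 4 plates was found for 2 genes (0.0672%), Fos and Dusp1. With a limit of 0.5 log2 units, chosen after values were seen, 24 genes (0.806%) were above. At least 0.5 log2 units below were 373 genes (12.5%).

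Fos, which encodes a subunit of AP-1, had the widest spread, 1.78 log2 units above like genes. Its median cell held 40 CPM, the cell at the 95th percentile 2312 CPM and the highest 10010 CPM. At 10 reads or more Fos was found in 198 of 787 cells (25.2%), and in those cells its median was 995 CPM. Dusp1, a phosphatase of the same early response, was 1.09 above and had 10 reads or more in 44.3% of cells. Most capilEC cells thus had a low level of Fos, and a minority a high one.

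Beyond these 2, the wider limit took in genes of several kinds. Of the genes tested it held 1 of 12 glucose and small solute carriers, 1 of 7 amino acid carriers, 0 of 8 efflux carriers and 1 of 24 receptors and kinases. Vwf (von Willebrand factor) was 1.09 above like genes, with 10 reads or more in 23.6% of capilEC cells, 25.9% of aEC cells and 86.7% of vEC cells. Slc38a5 was 0.96 above. Its median cell held 110 CPM and its cell at the 75th percentile 1300 CPM, and 118 cells had 0 reads, 273 had 1 to 9 and 396 had 10 or more. Slc16a1 (0.86) and Mfsd2a (0.75) were above like genes too, and 468 cells held 10 reads or more of Mfsd2a, with a median of 1150 CPM in them. Robo4 (0.99), Ivns1abp (0.94), Itih5 (0.88), Plat (0.88, tissue plasminogen activator) and Fn1 (0.86) were among the first 9. Without plate s169s 8 genes were 2-fold above, Slc7a1 and Stra6 among them.

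The gene of least spread for its mean was Ubb, which encodes polyubiquitin. It was 3.71 log2 units below like genes, with a CV of 0.372 at a mean of 399.8 CPM and a range of 10 to 1200 CPM. Gapdh was 3.16 below, at a mean of 94.5 CPM, and Ppia (cyclophilin A) 2.66 below. Of 84 ribosomal protein genes 78 and of 12 mitochondrial genes 10 were in this group. Abundant genes were among them as well. Bsg had the lowest CV of those named, 0.295, with 3690 CPM at the 5th and 10961 CPM at the 95th percentile. Tmsb4x (0.333), Pltp (0.335), Itm2a (0.338), Cldn5 (0.349) and Ly6a (0.360) were close to it. Other abundant genes were not in this group, among them Cxcl12, Sparcl1, Igfbp7 and Slc2a1.

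**Figure D3:**
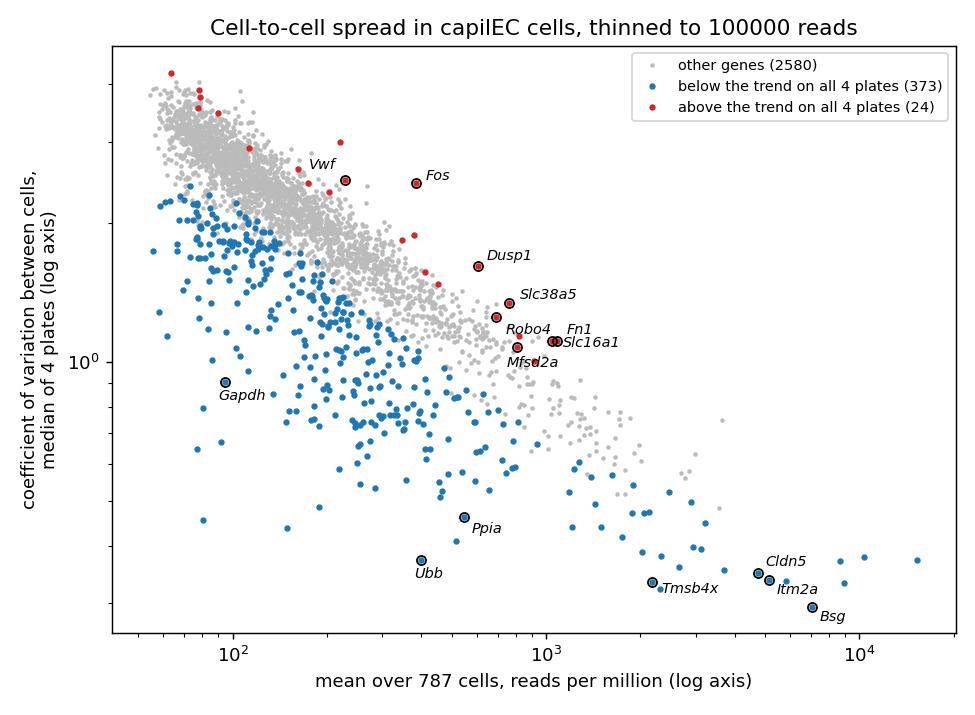
Coefficient of variation between capilEC cells, median of 4 plates, against mean level for 2977 genes, both on log axes. Red points (24 genes) lie at least 0.5 log2 units above genes of like mean on every plate and blue points (373 genes) at least as far below, with Fos highest over its neighbours and Ubb lowest.

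Genes that varied together were sought for 5 anchors with Spearman's rho within each plate, averaged over the 4 plates, over 787 cells and 2770 genes. These are descriptions across cells that share library preparation and depth, without a test. For Slc38a5 the highest were Tmsb10 (rho 0.39, 0.34 to 0.44 by plate), which encodes an actin-binding peptide, and Car4 (0.33, 0.29 to 0.43), and the lowest was Cxcl12 (-0.36, -0.43 to -0.25). The same genes differed between the vessel labels. Slc38a5 and Tmsb10 were at 2026 and 570 CPM in vEC and at 47.4 and 71.3 CPM in aEC, and Cxcl12 at 371 CPM in vEC and 3390 CPM in aEC. Of the 396 cells with 10 reads or more of Slc38a5, 373 also passed for Car4 and 358 for Tmsb10. Of the other capilEC cells, 273 passed for Car4 and 255 for Tmsb10.

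Mfsd2a and Slc38a5 did not exclude each other. Their mean rho was -0.08 (-0.22 to 0.05), and 245 cells passed for both, 223 for Mfsd2a alone, 151 for Slc38a5 alone and 168 for neither. Mfsd2a had no gene at 0.3 or above, and its highest were Slc2a1 (0.22), Cxcl12 (0.21) and Vwa1 (0.20). Cldn5 followed Bsg (0.57), the rows Yam1 (0.55) and Yam1.1 (0.54), Pltp (0.48), Ctsa (0.45) and Itm2a (0.31). Fos followed Dusp1 (0.35), Egr1 (0.34), Zfp36 (0.33) and Junb (0.31), and Ifit3 followed Ifit1 (0.30), both genes of the interferon response. Correlations under 0.3 in these sparse counts are weak and are given as values only. Slc7a5 and its partner Slc3a2 were among them, at 0.08.

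**Figure D4:**
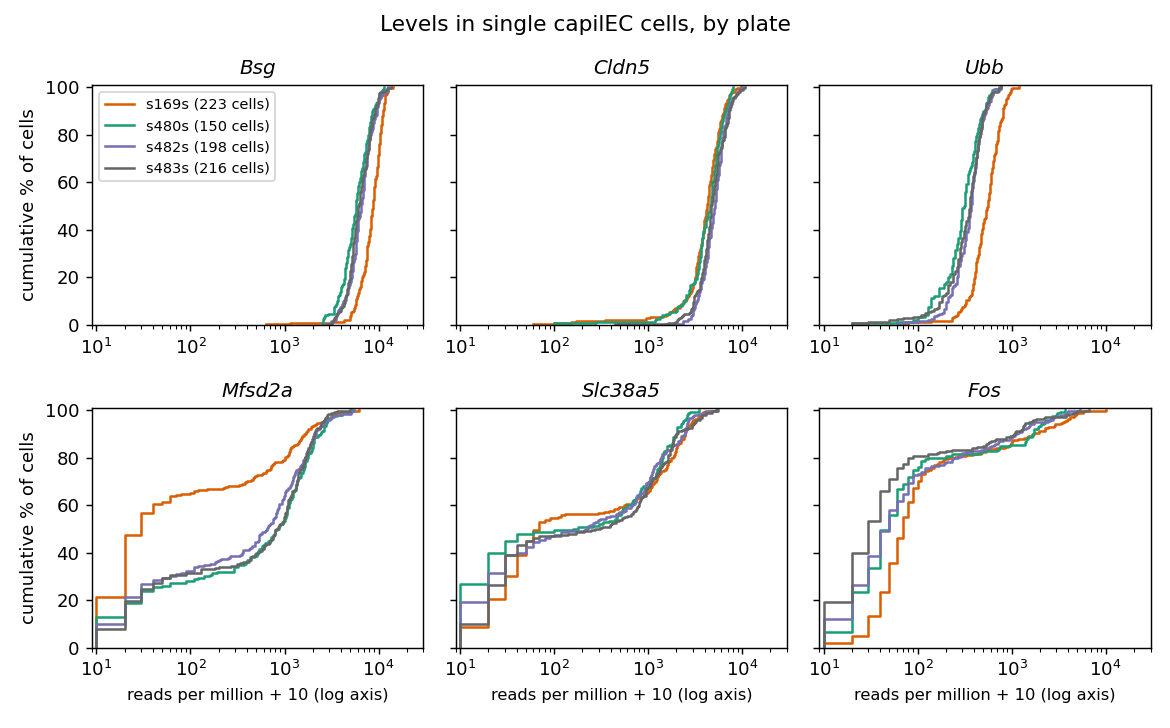
Cumulative share of capilEC cells by level of 6 genes, each plate as a line, in CPM plus 10 on a log axis. Bsg, Cldn5 and Ubb rise in 1 step, while Mfsd2a, Slc38a5 and Fos are flat between low and high cells, and Mfsd2a on plate s169s has the larger share of low cells.

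Between plates, a gene met the rule with at least 50 CPM in the higher group and a 4-fold difference from the mean of the other 3 plates. Of 12281 genes, 194 were lower on s169s (1.58%) and 11 higher (0.0896%). On the other plates the counts were 2 lower (0.0163%) and 5 higher (0.0407%) for s480s, 2 lower (0.0163%) and 0 higher for s482s, and 3 lower (0.0244%) and 1 higher (0.00814%) for s483s. The 2 genes lower on s482s were Xist and Tsix. The same 2 were among the 3 lower on s483s and came first of the 194 lower on s169s. They were high on s480s alone (621 and 360 CPM), which raised the mean of the other plates. With a pseudocount of 20 CPM the s169s counts were 72 and 0. Atxn2l (7.24 CPM on s169s against a mean of 212 CPM), Sun2 (7.19 against 211), Adgra2 (5.20 against 171) and Sox9 (1.14 against 82.5) were among the first of the 194. Higher on s169s were Ptgds (90.5 against 10.6 CPM), Ccdc6, the haemoglobin gene Hbb-bs (51.7 against 4.54 CPM), Gkn3, Cyp39a1 and Itpripl1.

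G+C content differed for the genes lower on s169s. Their exons had a median G+C content of 56.0%, against 49.4% over genes of at least 50 CPM. The share at least 4-fold lower on s169s was 0.919% of genes under 45% G+C, 1.21% at 45 to 50%, 3.54% at 50 to 55% and 9.35% at 55% or more. The median difference of s169s fell over the same bands from 0.33 to -0.57. Other labels on this plate held many of the same genes low. These were counted where the mean of the other 3 plates in that label was at least 50 CPM. Such a limit favours genes that are lower on s169s, so the share of all genes under the same limit is given beside. Of 111 of them in MG, 66.7% were at least 4-fold lower on s169s, against 15.8% of all genes. The figures were 59.8% against 21.5% in vEC, 63.9% against 39.0% in PC and 59.1% against 38.6% in aEC, where s169s held 7 to 14 cells. The origin of the plate difference was not tested.

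**Figure D5:**
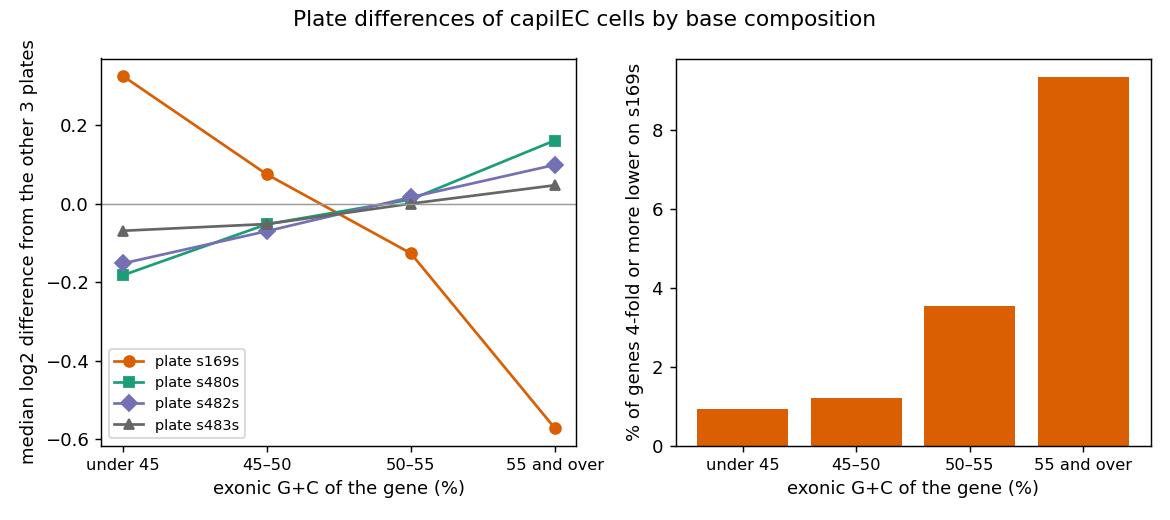
Left, the median log2 difference of each plate's capilEC cells from the other 3 plates, by exonic G+C content of the gene; right, the share of genes at least 4-fold lower on s169s. The s169s line falls from 0.33 under 45% to -0.57 at 55% or more, and the share rises from 0.919% to 9.35%.

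Sex-linked RNA separated s480s from the other plates. Xist, the RNA that coats the inactive X chromosome, was at 621 CPM on s480s with a read in 148 of 150 cells, and at 0.0259 to 0.138 CPM on the other plates. The Y-linked genes Ddx3y and Eif2s3y were at 0.0251 CPM each on s480s and at mean levels of 110 and 85.6 CPM elsewhere. Kdm5d and Uty, also Y-linked, were lower but still read on s480s. They were at 3.06 and 0.552 CPM there, with a read in 26 and 14 of 150 cells. Elsewhere Kdm5d was at 9.73 to 34.7 CPM and Uty at 20.6 to 33.9 CPM. Kdm5c, an X-linked gene known to escape inactivation, was at 73.7 CPM on s480s and had a mean of 12.6 CPM elsewhere. Tsix lies antisense to Xist, and its 360 CPM on s480s cannot be told apart from reads of Xist. With 1 such plate, a difference of s480s by sex and one by plate cannot be told apart.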

How the data were processed

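Single cells of mouse brain vessel fragments were measured with Smart-seq2. The authors deposited raw counts of reads per gene and cell, 46517 gene rows and 1235 cells, with a label for each cell. The submitters' processing notes list featureCounts, Subread 1.4.6-p5 and SAMtools 1.16.1, and name GRCm39 and GRCm38 with no role for either build. No source used here says whether strand entered the counting. Every cell held at least 100021 reads, and none was left out. Doublets were not called, and an alternative leaves out cells with markers of another class.

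For each label, the counts of its cells were added up and scaled to 1000000 reads (CPM). Differences are on log2(CPM + 5), with at least 50 CPM and a read in at least 50% of cells of the higher group. The 50% rule and the cells with a read of sex-linked genes used all reads. For spread and for other shares of cells, cells were thinned to 100000 reads. Exonic lengths and G+C content came from GENCODE M21 gene models and matched 98.3% of the rows considered. The rules for genes named were the first 30 by CPM, the first 20 per kb, the first 15 in each direction of a contrast with 1 direction on every plate, the first 20 and 15 by spread, 6 per plate and direction, 6 per anchor, and members of lists. Genes outside these rules were chosen after their values were seen. A few genes that meet the rules are not reported here. The members, rules and gene lists (490 entries in 30 lists) were chosen with earlier results of these data known. Alternatives used TMM factors (edgeR 4.0.16), size factors (DESeq2 1.42.0), other pseudocounts, minimums and cells. The steps were checked on simulated data. Python 3.11.15 and R 4.3.3 were used.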

Additional observations from a re-analysis of the deposited data

Results flagged for a closer look

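In 8 of the 30 lists, the summed level in capilEC cells on plate s169s lay apart from the other 3 plates, with a gap to the nearest plate that exceeded Dixon's 95% critical value for 4 values. Chance alone sets apart about 1 in 20 groups, and lists that share genes are not independent. The lists were lower on s169s for glucose, lactate and small solute carriers (9059 CPM against 11752 to 12142), amino acid carriers (4147 against 5718 to 6034), tight and adherens junctions (11676 against 14985 to 15299), the Wnt and norrin pathway (4221 against 7475 to 8135), pan-endothelial markers (11997 against 13946 to 14320) and neuron markers (8.12 against 30.8 to 31.9). They were higher for leukocyte adhesion (6304 against 5563 to 5637) and arterial markers (499.8 against 186 to 230). The G+C content of these lists was not computed, and the part of the s169s difference by G+C content in these values was not tested.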

How the results depend on the processing

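Of 116 counts recomputed under alternatives, 94 stayed within 1.5 times the main count. Of 960 values of single genes, 944 stayed past their limit, and none changed direction. The genes named from contrasts were chosen for large differences with 1 direction on every plate. That choice left little room for a change of direction when a plate was left out. Against every other label, Egr1, Fos, Mfsd2a and Tecpr1 did not meet that rule. They are named above because all genes of that contrast are given. Without a minimum share of cells, 14 genes were higher than every other label, 120 and 168 were higher and lower than aEC and vEC, and 329 and 709 higher and lower than the non-endothelial labels. The 2 genes lower than every other label became 0 with TMM factors, with a pseudocount of 20 CPM and without each gene's top cell, and 1 with equal weight per cell or without cells of other-class markers. Without the labels FB and CP-EC, added after the data were seen, 14 genes were higher than every other label. Leaving out each plate gave 8 to 14 genes higher and 0 to 3 lower than every other label, 43 to 70 higher than aEC and vEC, and 2 to 8 of high spread. Thinning to 50000 reads left 1 gene of high spread, and the added limit of 0.5 gave 24. A minimum mean of 20 CPM gave 579 genes of low spread. Genes that differed on at least 1 plate, each counted once, numbered 212, against 74 with a pseudocount of 20 CPM and 421 without a minimum CPM. DESeq2 size factors moved the median of all genes against the non-endothelial labels to -0.33, and leaving out each gene's top cell moved it to 0.47. No paired analysis was possible because each label is 1 sample and the labels give no replicate numbers. Differences within plates are given as values, with no test. Labels of few cells limit the reference, and 3 reads in FB are worth 1.17 CPM against 0.0173 CPM in capilEC.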
